A study of Mus musculus with 2 samples.

Results

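Mfsd2a and 7 genes near it in the gene order of mouse chromosome 4 were described in eye cups of postnatal day 13 mice. The 7 were Mycl, Trit1, Ppie and Hpcal4 on 1 side and Cap1, Ppt1 and Rlf on the other. The 8 genes were taken by symbol from the platform annotation, which gave them 17 of the 45101 probe sets, or 8 of the 18193 genes that had a probe set of their symbol alone. They were chosen with their values known, so those values are a description and carry no test. The series has 2 Affymetrix Mouse 430 2.0 arrays, of which the labels give 1 as RNA pooled from 6 Mfsd2a KO animals and 1 as RNA pooled from 6 wild-type animals. Both pools came from eye cups, the back of the eye with retina, pigment epithelium, choroid and sclera, from which cornea, lens and optic nerve had been removed. The sources used here give neither the strain, the sex of the animals, the deleted part of the gene nor the way the KO allele was made. Since each genotype was read once, the spread between samples is unknown, no p-value is given, and a difference is one between 2 pools.

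Mfsd2a encodes a sodium-dependent transporter of the major facilitator superfamily that moves lysophosphatidylcholine carrying docosahexaenoic acid and other long-chain fatty acids across cell membranes. In brain and retina it is known from the endothelium of the blood-tissue barriers, where its loss is associated with more vesicular transport, and from the retinal pigment epithelium, which supplies photoreceptors with docosahexaenoic acid. Its neighbours have unrelated roles. Mycl is a transcription factor of the Myc family, Trit1 adds an isopentenyl group to an adenosine beside the anticodon of some transfer RNAs, and Cap1 binds actin and adenylyl cyclase and speeds actin turnover. Ppt1 removes palmitate from proteins in the lysosome, and its loss causes an infantile form of neuronal ceroid lipofuscinosis in humans. Ppie is a cyclophilin found in the spliceosome, Rlf is a zinc finger protein, and Hpcal4 is a calcium sensor related to hippocalcin.

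In the RefSeq gene table the protein-coding genes of this stretch follow each other as Rlf, several genes with only clone names, Ppt1, Cap1, Mfsd2a, Mycl, Trit1, Bmp8b, Oxct2b, Ppie and Hpcal4. Of its 16 protein-coding genes from Rlf to Hpcal4, 11 had a probe set of their own and 8 were measured, which are the 8 genes described here. The promoters of Mfsd2a, Mycl and Trit1, the 3 neighbouring genes with the largest differences of the 8, are shown as RefSeq gives them for assembly GRCm38.p6, from 250 bases before the gene's start to 50 bases after it. Capitals mark matches to the motifs searched, with ATTGG being CCAAT read on the other strand.
Mfsd2a, chr4:122961139-122961438, minus strand: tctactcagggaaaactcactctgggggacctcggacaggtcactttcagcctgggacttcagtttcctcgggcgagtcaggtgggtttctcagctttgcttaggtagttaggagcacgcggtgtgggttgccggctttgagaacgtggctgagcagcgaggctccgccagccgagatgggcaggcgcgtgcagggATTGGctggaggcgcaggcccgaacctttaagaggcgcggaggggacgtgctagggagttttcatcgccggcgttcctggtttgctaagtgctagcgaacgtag
Mycl, chr4:122995681-122995980, plus strand: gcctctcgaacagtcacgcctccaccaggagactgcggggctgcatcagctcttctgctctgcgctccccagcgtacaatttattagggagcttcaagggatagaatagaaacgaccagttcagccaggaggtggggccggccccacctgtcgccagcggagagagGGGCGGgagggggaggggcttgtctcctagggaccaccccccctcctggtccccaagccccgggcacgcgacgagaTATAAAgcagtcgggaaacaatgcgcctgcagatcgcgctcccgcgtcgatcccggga
Trit1, chr4:123016343-123016642, plus strand: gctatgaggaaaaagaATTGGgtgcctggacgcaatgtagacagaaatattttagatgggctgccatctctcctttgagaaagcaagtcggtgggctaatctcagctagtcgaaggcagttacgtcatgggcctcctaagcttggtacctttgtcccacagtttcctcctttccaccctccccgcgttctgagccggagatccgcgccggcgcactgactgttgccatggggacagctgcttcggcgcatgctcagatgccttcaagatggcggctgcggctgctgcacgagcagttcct

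Mfsd2a and Mycl start on opposite strands and are read away from each other, with 34.7 kb between their starts. Trit1 is read in the same direction as Mycl and starts 20.7 kb beyond it. On the other side, Cap1 starts 75.1 kb from Mfsd2a. Rlf is far more distant, with its promoter from chr4:121215035, against chr4:122961139 for that of Mfsd2a. The table held a promoter for 7 of the 8 genes. A set of 5 common motifs was searched on both strands, and matches to different motifs did not overlap in the 3 promoters shown. CCAAT was in the promoters of Mfsd2a, Trit1, Cap1, Rlf and Hpcal4, and in 37.4% of all 32851 promoters of the same length. GGGCGG was in those of Mycl, Rlf and Hpcal4 (35.7% of all), TATAAA in that of Mycl (13.6%), CACGTG in that of Rlf (7.15%) and TGACGTCA in 0 of the 7 (1.79%). In the Mycl promoter TATAAA began 8 bases before the start (position -8) and GGGCGG at position -84. Of the 5 motifs, none was shared by Mfsd2a, Mycl and Trit1. The G and C content was 60.3% in the Mfsd2a promoter, 64% in that of Mycl and 55.7% in that of Trit1, against a median of 52.7% over all promoters. These matches are letters found in these windows and say nothing about binding.

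Values are intensities on a linear scale as deposited, and each difference is the log2 value of the array labelled Mfsd2a KO minus that of the wild-type array. A gene was read from its brightest probe set and counted as measured when at least 1 array reached its median over probe sets that are not controls, which was 93.4 on the array labelled Mfsd2a KO and 94.2 on the wild-type array. This left 11568 measured genes, among them all 8 described here. Their median log2 difference was 0.014, and the central 95% lay between -0.21 and 0.23. Genes read several times on the same arrays gave a rough guide to technical error. Within a gene, the log2 differences of its probe sets had a pooled SD of 0.0886 (5201 genes, probe sets above the floor). This SD also takes in differences between transcripts and cross-hybridisation, and it misses error shared by all probe sets of a gene. The levels of different probe sets cannot be compared with each other.

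The targeted gene came first, as a check of the labels. The 1 probe set of Mfsd2a read 244 on the array labelled Mfsd2a KO, against 181 on the wild-type array. It was the higher on the array where the label would have it lower or absent, by a log2 difference of 0.43 (1.35-fold), and ranked 39th from the top of the 11568 measured genes. A probe set outside the deleted part of a gene checks nothing, and where these probes lie relative to the deletion was not analysed here. The array labelled Mfsd2a KO is therefore called so throughout, and the wild-type array is likewise known by its label alone. Whether the 2 labels were exchanged was not tested, and every direction given here would turn round if they were.

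Mycl showed the largest difference of the 8 genes. Its brightest probe set read 223 on the array labelled Mfsd2a KO, against 96.5 on the wild-type array, where it lay just above the floor. The log2 difference was 1.21, or 2.31-fold, and 1 measured gene of the 11568 had a larger one. Mycl has 2 further probe sets, which on both arrays stayed under the floor. One read 67.2 on the array labelled Mfsd2a KO, against 48.2 on the wild-type array, a log2 difference of 0.48. The other read 71.1 on the array labelled Mfsd2a KO, against 48.5 on the wild-type array, a log2 difference of 0.55. All 3 were thus higher on the same array, but their sizes ran from 0.48 to 1.21, and their mean was 0.75. The pooled SD between probe sets comes from sets above the floor, so it gives no measure for the 2 dimmer ones.

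Trit1 lies beyond Mycl and has 1 probe set, well above the floor on both arrays. It read 666 on the array labelled Mfsd2a KO, against 323 on the wild-type array. The log2 difference of 1.04, or 2.06-fold, was the third from the top of all measured genes, directly after Mycl. The ending of its name, _a_at, marks a probe set that the manufacturer gives for several transcripts of 1 gene, so the reading does not tell which transcripts of Trit1 differed.

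**Figure D1:**
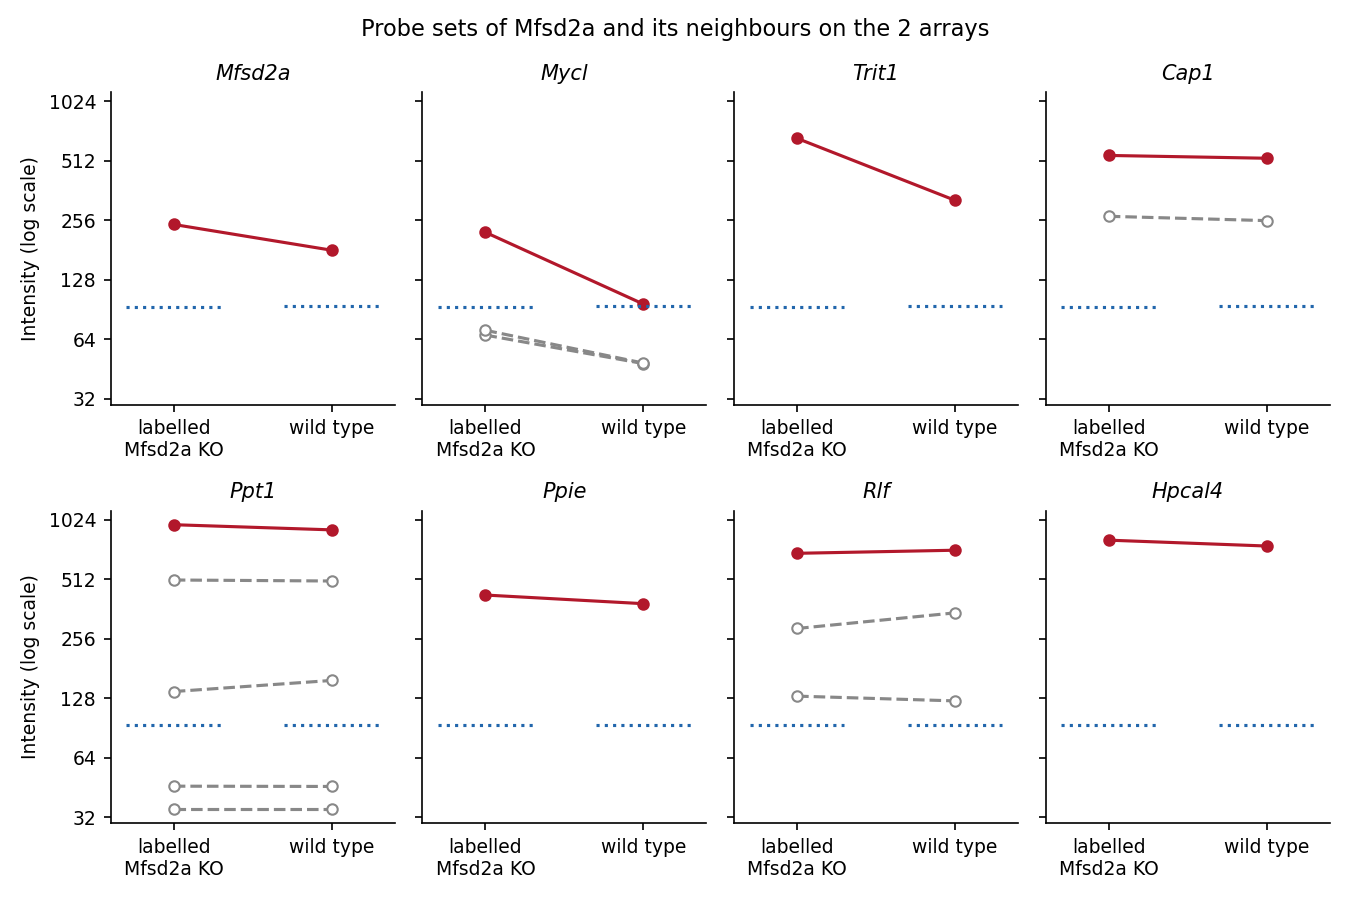
Intensity (vertical axis, log scale) of every probe set of the 8 genes on the array labelled Mfsd2a KO and on the wild-type array. Filled points and solid lines are the brightest probe set of a gene, open points and dashed lines its others, and dotted lines the floor of each array. The lines of Mfsd2a, Mycl and Trit1 are higher on the array labelled Mfsd2a KO (for the brightest sets 244, 223 and 666 there, against 181, 96.5 and 323 on the wild-type array), while those of the other genes are close to level or differ in direction between probe sets.

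The genes beyond these 3 differed much less. Ppie, the next measured gene after Trit1, read 427 on the array labelled Mfsd2a KO, against 386 on the wild-type array, a log2 difference of 0.15. Hpcal4, next after Ppie, read 809 on the array labelled Mfsd2a KO, against 756 on the wild-type array, a difference of 0.099. Each has 1 probe set, and both differences lay inside the central 95% of measured genes. Between Trit1 and Ppie lies Bmp8b, a secreted growth factor of the bone morphogenetic protein family, which was named after its values were seen. Its 2 probe sets were far below the floor, at 36.7 and 13.9 on the array labelled Mfsd2a KO, against 34.8 and 13.4 on the wild-type array, so no difference could be read for it.

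On the other side of Mfsd2a, Cap1 has 2 probe sets. The brighter read 546 on the array labelled Mfsd2a KO, against 528 on the wild-type array (log2 difference 0.047), and the dimmer 268 on the array labelled Mfsd2a KO, against 255 on the wild-type array (0.073). Both differences lay closer together than the pooled SD between probe sets. Cap1, which borders Mfsd2a as Mycl does, therefore stood near the middle of all genes, with 34.9% of measured genes above it.

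Ppt1 has 5 probe sets, of which 3 were above the floor and did not share a sign. The brightest read 969 on the array labelled Mfsd2a KO, against 912 on the wild-type array, a log2 difference of 0.087. The next read 508 on the array labelled Mfsd2a KO, against 503 on the wild-type array (0.017). Another, whose ending _s_at marks possible cross-hybridisation, read 138 on the array labelled Mfsd2a KO, against 158 on the wild-type array (-0.19). Of the 2 below the floor, 1 read 45.9 on the array labelled Mfsd2a KO, against 45.8 on the wild-type array, and the last had the same value, 35.2, on both. The mean of the 5 log2 differences was -0.016, opposite in sign to the brightest set. Identical values on the 2 arrays were found for 2159 of the 45101 probe sets.

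Rlf has 3 probe sets, all above the floor and again of both signs. The brightest read 694 on the array labelled Mfsd2a KO, against 719 on the wild-type array (log2 difference -0.052). The second read 289 on the array labelled Mfsd2a KO, against 347 on the wild-type array (-0.26), and the third 131 on the array labelled Mfsd2a KO, against 124 on the wild-type array (0.080). Rlf was the 1 gene of the 8 whose brightest probe set was lower on the array labelled Mfsd2a KO.

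At a size of 1.5-fold, 2 of the 8 genes, Mycl and Trit1, were higher on the array labelled Mfsd2a KO and 0 were lower, and both were also past 2-fold. Among all measured genes 0.138% were higher by this size, 0.0864% were lower and 0.0346% were higher by 2-fold. At 1.2-fold 3 of the 8 were higher, with Mfsd2a added, and 0 lower, where all measured genes had 1.79% higher and 1.17% lower. The genes were chosen on this contrast, so these shares are given as background only. With the floor raised to the 70th percentile of each array, Mfsd2a and Mycl were no longer measured and the count of 2 became 1. Apart from Mfsd2a, Mycl and Trit1, the 12 probe sets of the other 5 genes ran from -0.26 to 0.15.

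**Figure D2:**
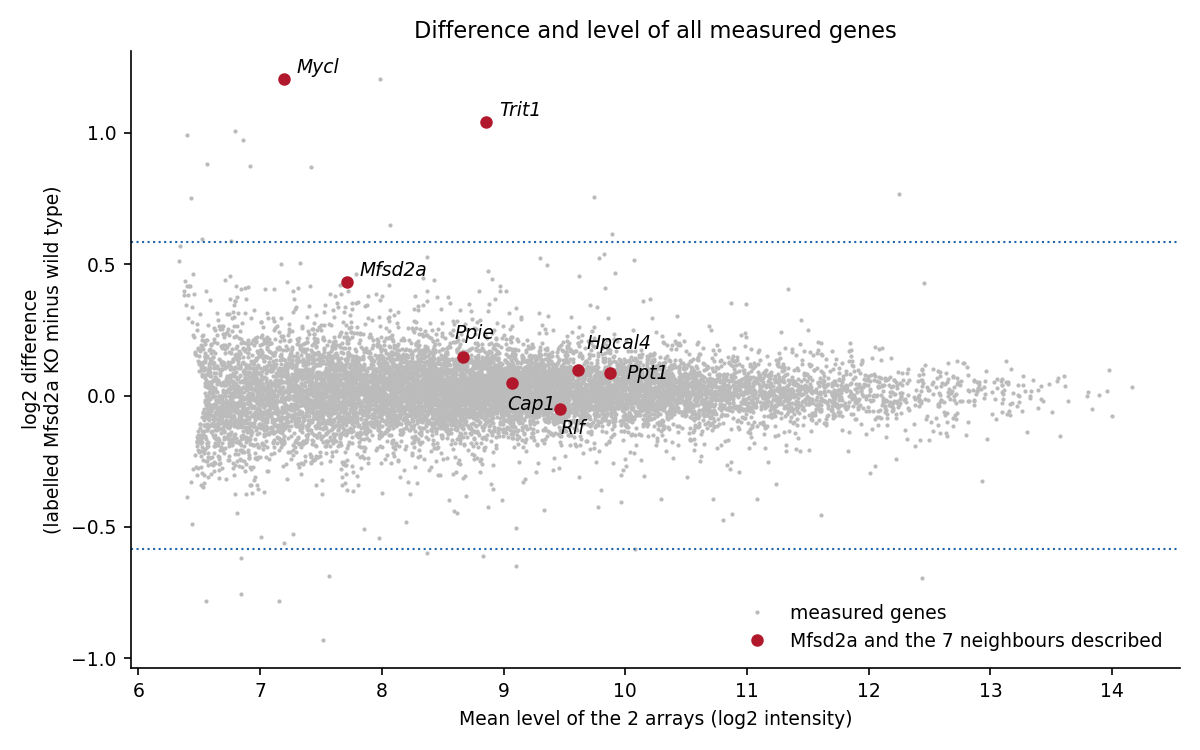
The log2 difference between the array labelled Mfsd2a KO and the wild-type array (vertical axis) against the mean log2 intensity of the 2 arrays (horizontal axis) for the 11568 measured genes (grey), with the 8 genes described here in red and dotted lines at 1.5-fold. Mycl (1.21) and Trit1 (1.04) lie above the upper line and outside the cloud of genes of their level, Mfsd2a (0.43) lies at the edge of it, and the other 5 lie within it, between -0.052 and 0.15.

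The surroundings were then followed further along the chromosome. Among the 10 nearest measured genes on each side of Mfsd2a, 2 of 20 were at least 1.5-fold higher on the array labelled Mfsd2a KO. Among all measured genes 0.138% were. The 2 were again Mycl and Trit1, which were chosen with their values known, and the others ran from -0.072 to 0.23. In the 13 of these 20 that are not among the 8 genes, 9 were above 0, against 55.8% of all measured genes. Their median was 0.019, close to that of all measured genes. Their 21 probe sets above the floor ran from -0.15 to 0.23, and 0 of them reached 1.2-fold in either direction, where 3% of all probe sets above the floor did. The highest was Heyl, a transcriptional repressor of the Notch pathway, which read 100.1 on the array labelled Mfsd2a KO, against 85.3 on the wild-type array, where it was below the floor. Its 2 dimmer probe sets, below the floor on both arrays, differed by -0.020 and 0.031.

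Beyond Heyl on the Mycl side, genes differed in their brightest probe sets by at most 0.091 above 0 and 0.072 below it. They were Pabpc4, a poly(A)-binding protein (0.091), Macf1, a linker of actin and microtubules (-0.046), Ndufs5, a subunit of respiratory complex I (0.0071), Akirin1 (-0.021) and Mycbp, a protein that binds Myc (-0.072). On the Cap1 side, beyond Rlf, they were Zmpste24, the protease that matures lamin A (-0.050), Smap2 (0.027), the exonuclease Exo5 (0.048) and Rims3, a presynaptic protein (0.075). After these came Nfyc, a subunit of the factor that binds CCAAT (0.0051), Ctps, the CTP synthase (0.077), and Scmh1, a Polycomb group protein (0.019). Dimmer probe sets above the floor had the opposite sign for Akirin1 (0.080) and Mycbp (0.077 and 0.061). Those of Scmh1 differed by -0.15 and 0.088. The differences of Mycl and Trit1 thus stood directly beside Mfsd2a in gene order, and on 1 side of it only among these 20 genes. Gene order does not measure distance in bases, and Rlf and the genes beyond it lie much farther off than Mycl and Trit1.

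Over the 50 nearest measured genes on each side, 2 of 100 were higher by 1.5-fold and 0 were lower by it. Over all measured genes these shares were 0.138% and 0.0864%. Without Mycl and Trit1 the other 98 had a median of 0.026, and ran from -0.32 (Ermap) to 0.42 (Ccdc163, at the far end on the Cap1 side). Of all 705 measured genes of chromosome 4, 3 were at least 1.5-fold higher (0.426%, against 0.138% of all measured genes) and 0 lower. Of these 3, Mycl and Trit1 were chosen with their values known. The third was Cnksr1, a scaffold of Ras signalling, 118 measured genes away from Mfsd2a, which read 231 on the array labelled Mfsd2a KO, against 126 on the wild-type array.

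**Figure D3:**
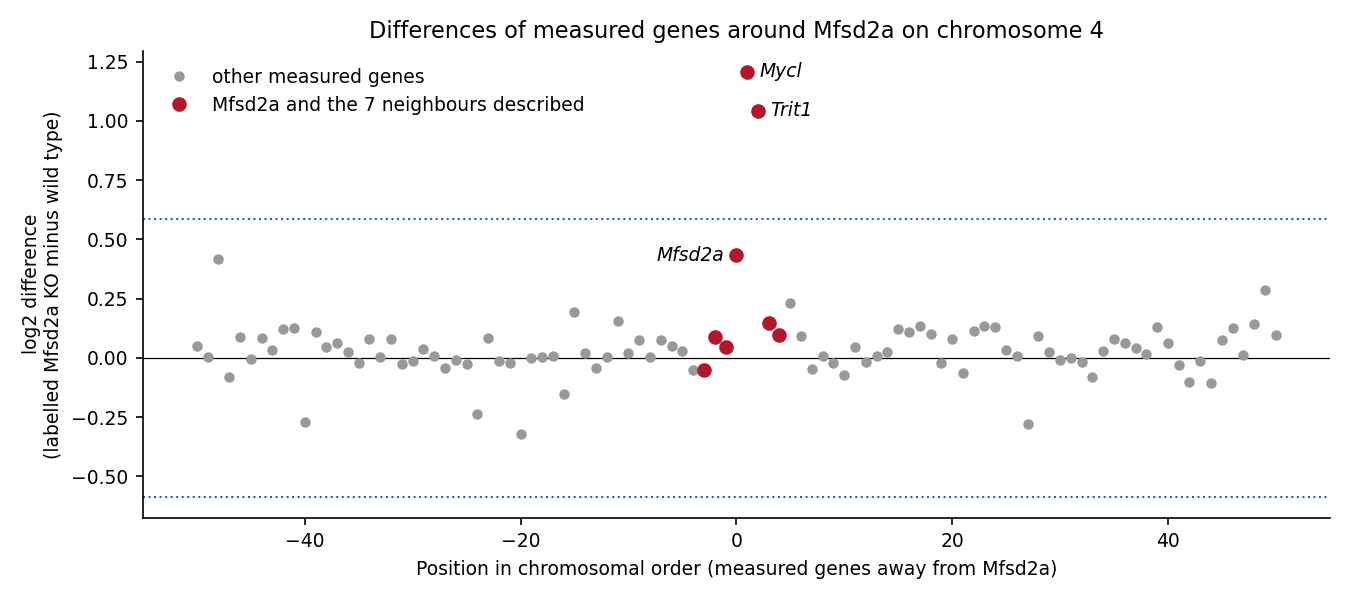
The log2 difference between the array labelled Mfsd2a KO and the wild-type array (vertical axis) for the 50 nearest measured genes on each side of Mfsd2a, in chromosomal order (horizontal axis, in measured genes away from Mfsd2a, Cap1 side to the left). The dotted lines mark 1.5-fold; Mycl and Trit1, the first and second genes on the right, are above the upper line, and the other 98 genes lie between -0.32 and 0.42.

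To place this pair among other neighbours, each measured gene with a known position was set beside the next one on its chromosome, which gave 11512 pairs. In 4 of them both genes were at least 1.5-fold higher on the array labelled Mfsd2a KO: Mycl with Trit1, the desaturase genes Scd2 with Scd1, and the Y-linked pairs Kdm5d with Eif2s3y and Eif2s3y with Uty. Mycl with Trit1 was the 1 pair with both past 2-fold. At the size of Mfsd2a itself, 6 pairs had both genes at least as high, the added ones being Mfsd2a with Mycl and Fads2 with Fads1. The pairs were counted with the difference between Mycl and Trit1 already known, and the counts are a description.

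With 2 arrays, likeness to a gene can only mean a similar difference at a similar level, so the 5 measured genes with the nearest log2 difference were sought among those within 0.5 log2 units of its mean level. For Mfsd2a (0.43) these were Rtp4, an interferon-induced receptor chaperone (0.43), Cyp20a1 (0.42), Prtg (0.42), Ccdc163 (0.42) and Erich6 (0.41), out of 2440 genes compared. For Mycl (1.21) the nearest of 2137 were clearly smaller, namely Uty (1.01), Oasl2 (0.97), Kdm5d (0.88), Cnksr1 (0.87) and Ccn1 (0.59). Around Trit1 (1.04) the gap was wider still, with Lss (0.53), Insig1 (0.52), Dhcr7 (0.50), Nr4a1 (0.47) and Shisa2 (0.45) the nearest of 2942. Uty (1.01) was nearer to Trit1 in its difference but lay outside the level range searched. Mycl and Trit1 were chosen with their values known, and 0.0346% of all measured genes were 2-fold higher. A gap below them was therefore given by that choice.

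Genes related to the 8 by function were counted in 7 lists, beside all measured genes, of which 55.8% were above 0, with a median of 0.014. None of the lists had a measured member at least 1.5-fold higher on the array labelled Mfsd2a KO, and 1 member, Pvalb, was at least 1.5-fold lower. Among all measured genes 0.138% were higher by this size and 0.0864% lower, so few or no such members is near the background. Of 18 measured transporters of the Mfsd and Spns families, 8 were above 0 and 10 below, with a median of -0.023. Mfsd2b, the closest relative of Mfsd2a and an exporter of sphingosine 1-phosphate from blood cells, read 85.4 on the array labelled Mfsd2a KO, against 106 on the wild-type array (-0.31). Its value on the array labelled Mfsd2a KO was below the floor, and that on the wild-type array a little above it. Mfsd10 was the highest, at 133 on the array labelled Mfsd2a KO, against 115 on the wild-type array (0.21), while Mfsd1 (-0.031) and Mfsd3 (-0.11) differed little.

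The measured partners and relatives of Mycl differed by less than Mycl did. Of 15 measured genes of the Myc network 8 were above 0. The median was 0.0070 (-0.0044 without a floor and -0.0096 after removal of a loess trend). Of the 15, 0 reached 1.2-fold, which is near the background, since 1.79% of all measured genes were higher by it and 1.17% lower. Max, the obligate partner of Myc proteins, read 1003 on the array labelled Mfsd2a KO, against 905 on the wild-type array (0.15). Mycn, its relative of the developing nervous system, read 423 on the array labelled Mfsd2a KO, against 403 on the wild-type array (0.070). The antagonist Mxd1 (0.10) and the helicase Ruvbl1 (0.13) were likewise slightly higher.

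Of 25 measured enzymes of transfer RNA modification, 21 were above 0 and the median was 0.073, with 1 gene past 1.2-fold on each side of 0. Over all measured genes 1.79% were higher by that size and 1.17% lower. Cdk5rap1, which acts after Trit1 on the same adenosine by adding a methylthio group in mitochondrial transfer RNAs, read 405 on the array labelled Mfsd2a KO, against 544 on the wild-type array. Its log2 difference of -0.42 was the largest of the list and opposite in sign to that of Trit1. Cdkal1, the related enzyme for cytosolic transfer RNAs (0.071), Trmt1, a methyltransferase (0.10), and Ctu2, which helps to thiolate the wobble uridine (0.27), were above 0.

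In the list of actin turnover, around Cap1, 14 of 19 measured genes were above 0, with a median of 0.043. Its highest member was Coro1a, an actin regulator of leukocytes, at 260 on the array labelled Mfsd2a KO, against 189 on the wild-type array (0.46). Twf2 differed by 0.18, Cfl1, the main cofilin, by 0.061, Cfl2 by -0.015 and Cap2, the relative of Cap1, by -0.18. The lysosomal list around Ppt1 had 8 of 20 above 0 and a median of -0.021, which was 0.020 with the mean of probe sets and 0.036 without _s_at and _x_at sets, with 0 genes past 1.2-fold. Its members included Ppt2 (0.031), Tpp1, a peptidase of the late infantile disease (-0.019), Cln3 (0.17) and Kctd7 (-0.16). For cyclophilins and spliceosome partners of Ppie, 16 of 19 were above 0, with a median of 0.040. Ppwd1 (0.27) and Ppig (0.11) led it, and Ppib (0.013), Ppic (0.019) and Ppif (0.058) differed little.

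The list of calcium sensors around Hpcal4 also held Pvalb and other calcium buffers, which are not close relatives of hippocalcin. This list ran against the sign of Hpcal4 itself (0.099). Of its 15 measured genes 0 were above 0, 14 were below and 1, Hpcal1, had identical values on both arrays, with a median of -0.10. Pvalb read 368 on the array labelled Mfsd2a KO, against 561 on the wild-type array (-0.61), and is also a gene of fast skeletal muscle. Guca1a, which senses calcium in photoreceptor phototransduction, read 2671 on the array labelled Mfsd2a KO, against 3663 on the wild-type array (-0.46). Vsnl1, visinin-like protein 1 and a close relative of Hpcal4, was named after its values were seen. It read 1422 on the array labelled Mfsd2a KO, against 1549 on the wild-type array (-0.12). Hpca differed by -0.035 and Ncald by -0.046, both less than the pooled SD between probe sets. Both Pvalb and Guca1a were known from earlier results of these data to be low, so the list gives no independent view of its direction.

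**Figure D4:**
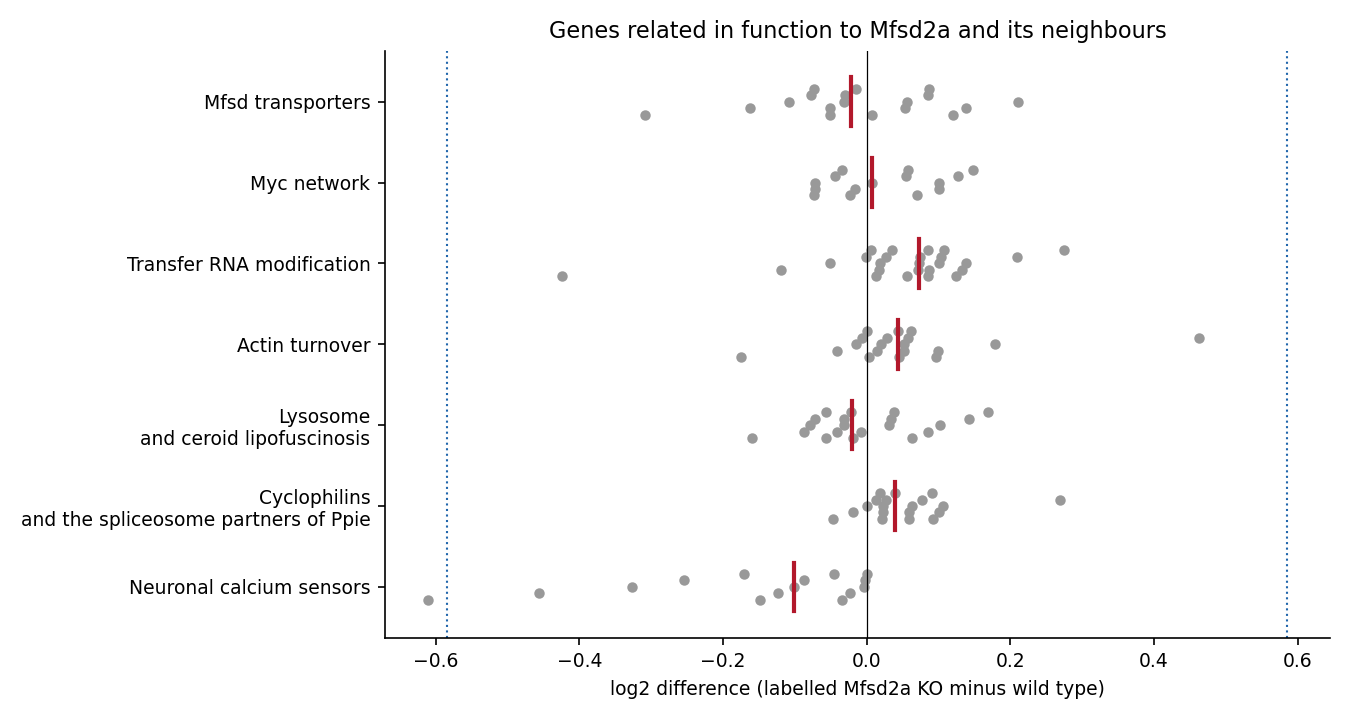
The log2 difference between the array labelled Mfsd2a KO and the wild-type array (horizontal axis) for the measured genes of 7 lists related in function to the 8 genes. Each grey point is a gene, spread vertically for legibility, red bars are list medians and dotted lines mark 1.5-fold; the medians lie between -0.10 and 0.073, and Pvalb (-0.61) is the 1 gene past a dotted line.

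Markers of the tissue and of the cells that use Mfsd2a were read on the same arrays. The rod genes were Gnat1, Pde6b, Sag and Nrl. They read from 10364 to 18569 on the array labelled Mfsd2a KO, against 10238 to 18137 on the wild-type array. The pigment epithelium gene Rpe65 read 3301 on the array labelled Mfsd2a KO, against 3484 on the wild-type array. Each of these genes was far above the floor on both arrays. The next counts cover few genes per cell type and stand beside the 55.8% of all measured genes above 0. All 4 endothelial markers were lower on the array labelled Mfsd2a KO, with a summed intensity of 1432, against 1697 on the wild-type array. So were all 3 measured pigment epithelium markers, with a sum of 10627 on the array labelled Mfsd2a KO, against 11250 on the wild-type array. Rlbp1, also a Mueller glia marker, made up much of that sum. It read 6018 on the array labelled Mfsd2a KO, against 6145 on the wild-type array. The other Mueller glia markers were Slc1a3 (0.21) and Glul (-0.041). Best1 of pigment epithelium, below the floor, read 87.0 on the array labelled Mfsd2a KO, against 84.3 on the wild-type array. Of the pigment epithelium markers, Lrat (-0.31) differed by more than the pooled SD between probe sets, and Rpe65 (-0.078) and Rlbp1 (-0.030) by less. Of the endothelial markers, Slco1c1 (-0.45), Cldn5 (-0.21) and Pecam1 (-0.14) differed by more, and Cdh5 (-0.018) by less. That SD is not the spread between pools, which is unknown. In pooled tissue, fewer cells of a type and less RNA per cell cannot be told apart.

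Markers of other tissues and of the sexes also read differently on the 2 arrays. Counts of so few genes stand beside the 55.8% of all measured genes above 0. The measured lens markers (3 of 3 higher) summed to 1339 on the array labelled Mfsd2a KO, against 1181 on the wild-type array. Cryaa (0.35) and Crygd (0.14) differed by more than the pooled SD between probe sets, and Cryba1 (0.039) by less. Those of cornea (4 of 4 lower) summed to 656 on the array labelled Mfsd2a KO, against 846 on the wild-type array. Aldh3a1 (-0.62), Krt14 (-0.56) and Krt5 (-0.33) differed more than Krt12 (-0.11). For skeletal muscle (2 of 4 lower) the sum was 2033 on the array labelled Mfsd2a KO, against 2177 on the wild-type array. Without Pvalb, the other 3 muscle markers summed to 1665 on the array labelled Mfsd2a KO, against 1616 on the wild-type array, the opposite direction. These 3 did not share a sign, with Ckm at -0.34, Acta1 at 0.029 and Myh1 at 0.22. Mbp, the 1 measured myelin marker, read 489 on the array labelled Mfsd2a KO, against 443 on the wild-type array. Below the floor on both arrays lay Best1 of pigment epithelium, Bfsp1 and Mip of lens and Mog of myelin. The 3 measured Y-linked genes summed to 657 on the array labelled Mfsd2a KO, against 382 on the wild-type array, and Xist read 4357 on the array labelled Mfsd2a KO, against 7055 on the wild-type array. The part of these differences in the values of Mfsd2a, Mycl and Trit1 was not tested, and genotype cannot be told apart here from the sexes pooled, the dissection or the handling of the arrays.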

How the data were processed

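Per the labels, RNA from eye cups of 6 animals per genotype was pooled and hybridised to 1 array per pool. The deposited values are intensities on a linear scale for 45101 probe sets, made with Partek 6.6 and RMA (background correction, equalised distributions, probes combined into sets) per the submitters' processing notes, with no settings given in the sources used here. RMA shrinks the differences of dim probe sets and removes any overall difference between arrays. Signal over background and detection calls were not analysed here, and precision is limited by there being 2 arrays.

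Of the probe sets, 34958 had 1 symbol, 932 several and 9211 none; the 64 controls were left out. An Entrez identifier in the RefSeq table of GRCm38.p6 was found for 34741 of the 34945 others with 1 symbol, and 0 symbols changed. Gene order and promoters came from RefSeq. The genes, lists, sizes and rules were chosen with earlier results of these data known. Named were the 8 genes, the 10 nearest measured genes on each side, any gene past 1.5-fold among the 50 nearest, the 5 most alike, and of each list the first 3 measured genes and the 2 with the largest differences; Bmp8b, Ermap, Vsnl1 and, on its chromosome, Cnksr1 were named after their values were seen. Alternatives were to drop the floor or raise it to the 70th percentile, to average probe sets, to omit _s_at and _x_at sets, to remove a loess trend (span 0.3, 3 iterations), and to use sizes of 1.2-fold and 2-fold. Python 3.11.15, numpy 2.4.6, pandas 2.3.3, statsmodels 0.14.6 and matplotlib 3.10.9 were used, and the steps were tested on simulated data.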

Additional observations from a re-analysis of the deposited data

How the results depend on the processing

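No paired analysis was possible because there is a single array of each genotype. The cause of the changes below was not tested, except that a higher floor leaves fewer genes and another size counts other genes. With the floor at the 70th percentile Mfsd2a and Mycl were no longer measured, so that 1 of the 8 genes, Trit1, was at least 1.5-fold higher, as was 1 gene among the 10 and 1 among the 50 nearest on each side. With no floor 1 of the 50 nearest on each side was at least 1.5-fold lower. At 1.2-fold 4 of these were higher and 3 lower, where all measured genes had 1.79% higher and 1.17% lower. With the mean of probe sets Mycl differed by 0.75 and Ppt1 by -0.016. The median of the Myc network was -0.0044 without a floor and -0.0096 after the loess step. That of the lysosomal list was 0.020 with the mean of probe sets and 0.036 without _s_at and _x_at sets. Trit1, Ppie, Hpcal4 and Mfsd2a have 1 probe set each, so the choice among probe sets could not alter them.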
